A study of Homo sapiens with 14 samples.

Results

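The keratin gene clusters at 12q13 and 17q21 were examined in the KMT2D peak list of SCC23 cells. Their peaks were chosen by position alone, as those whose summit, the base of highest signal, lay on chromosome 12 between 52.56 and 53.36 Mb or on chromosome 17 between 38.8 and 39.8 Mb of the human genome build hg19. Of 13808 peaks in all, 54 met this rule, 22 on chromosome 12 and 32 on chromosome 17. The windows hold 9 keratin genes that were followed one by one: KRT6A, KRT5, KRT8 and KRT18 on chromosome 12, and KRT15, KRT19, KRT14, KRT16 and KRT17 on chromosome 17.

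SCC23 is an established human cell line from a squamous cell carcinoma of the head and neck. The list came from 1 library of chromatin pulled down with an antibody to KMT2D, from KMT2D-WT cells kept without glucose for 6 hours, and the study used it to locate KMT2D on chromatin. The other 13 of the 14 libraries (an input, and histone antibodies in KMT2D-WT and KMT2D-KO cells) were not analysed here, so neither the genotypes nor the glucose conditions were compared. There were no replicates, and no difference between peaks was tested across libraries.

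Keratins are the intermediate filament proteins of epithelial cells. A filament is built from pairs of an acidic type I and a basic type II keratin. Type II genes lie together at 12q13 and type I genes at 17q21, with KRT18 as the exception, a type I gene that sits beside its partner KRT8 on chromosome 12. KRT5 and KRT14 are the pair of the basal layer of stratified epithelium, where KRT15 is expressed as well. KRT6A, KRT16 and KRT17 are induced on injury and stress and are abundant in squamous carcinomas. KRT8, KRT18 and KRT19 are typical of simple epithelium. KMT2D methylates histone H3 at lysine 4, mainly at enhancers. A peak list holds no expression values, so which of these keratins the cells made was not measured here.

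KMT2D peaks lay inside or within 5 kb of 6 of the 9 keratin genes, namely KRT8, KRT18, KRT19, KRT15, KRT14 and KRT17, and were absent from a wide stretch around KRT5 and KRT6A. The summit nearest to the gene start was 0.01 kb away in KRT17, 0.02 kb in KRT8, 0.37 kb in KRT18, 0.93 kb in KRT15, 1.74 kb in KRT14 and 6.88 kb in KRT19, where it lay beyond the 3' end. As background, 4.93% of all 15 kb bins of chromosomes 1 to 22 and X held a summit. These bins are positions and not genes, and no count over all genes could be made without an hg19 annotation. They also cover whole chromosomes, whereas the windows held 27.5 and 32 peaks per Mb, against 4.47 outside both. The share is therefore too low a background for genes within the windows. Every gene of the simple epithelial group had a summit inside it or within 5 kb (3 of 3), as had 2 of the 3 basal genes and 1 of the 3 injury genes. No difference between these small groups was tested. The 6 genes drew on 11 peaks, because KRT15 and KRT19 shared a pair of them, the only peaks that counted for KRT19. Of the 11, 7 had a q-value (the p-value as adjusted by the peak caller for multiple testing) no higher than 0.05. Fold enrichment is the ratio of scaled ChIP signal to local background at the summit, each plus a pseudocount, so it is lower than the plain ratio of fragments. In the 11 peaks it ran from 3.38 to 9.54 with a median of 4.29, beside a median of 4.47 in the other 43 peaks of the windows. Gene positions were known to the nearest 1 kb, so all distances to genes carry that rounding.

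**Figure D1:**
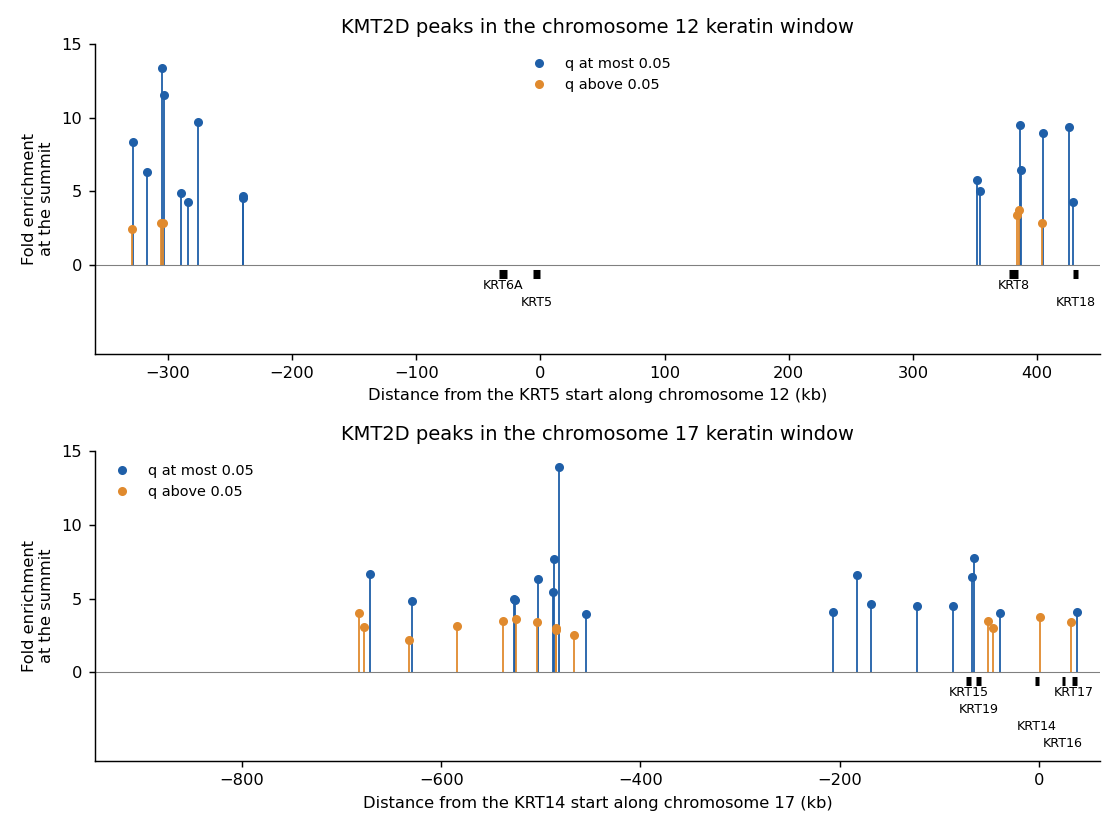
Fold enrichment at the summit of each KMT2D peak (vertical axis) against its distance in kb from the KRT5 start on chromosome 12 and from the KRT14 start on chromosome 17. Each stem is 1 peak, blue where the q-value was at most 0.05 and orange where it was above; black blocks mark the 9 genes. The 22 peaks of chromosome 12 stood at either side of a stretch that held KRT6A and KRT5 and no peak.

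KRT8, the type II keratin of simple epithelium, had the most peaks of the 9 genes, with 4 within 5 kb. The highest lay at chr12:53300085-53300661, with its summit 1.3 kb upstream of the start. There 50 ChIP fragments covered the summit, against 2.88 that the genome-wide background gives, and fold enrichment was 9.54 (q = 2.27e-14). A neighbour at chr12:53300953-53302034, 2.1 kb upstream, had a fold enrichment of 6.47 and 33 fragments (q = 1.2e-06). The peak at the start itself, chr12:53298742-53299141, was weaker, with a fold enrichment of 3.75 and 18 fragments (q = 0.217), and so was the peak 1.1 kb inside the gene, with 3.38 and 16 fragments (q = 0.217). The signal at KRT8 was thus higher just upstream of the start used here than on it, and only the upstream pair passed a q-value of 0.05. In the GENCODE annotation of build GRCh38, KRT8 transcripts also start 1.54 and 1.98 kb upstream of the start of the main transcript. Coordinates were not converted, so whether the upstream pair lies on those starts was not tested.

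Further upstream of KRT8 lay the widest peak of both windows. It spanned 2650 bp at chr12:53318807-53321456, from 19.8 to 22.5 kb upstream of the KRT8 start, with a fold enrichment of 8.96 at its summit and 68 fragments (q = 7.65e-16). A small peak beside it, at chr12:53318178-53318537, had a fold enrichment of 2.84 and 13 fragments (q = 1). In the GENCODE annotation of another build, GRCh38, a KRT8 transcript starts 21.39 kb upstream of the start of the main (canonical) transcript. By distance, this start falls within the span of the wide peak. Coordinates were not converted, so the overlap itself was not tested.

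KRT18, the type I partner of KRT8, had 2 peaks in its 5' flank and none inside the gene. The nearer, at chr12:53342516-53342875, had its summit 0.37 kb upstream of the start, with a fold enrichment of 4.29 and 21 fragments (q = 0.0395). The farther, at chr12:53339265-53339763, lay 3.5 kb upstream with a fold enrichment of 9.38 and 49 fragments (q = 3.3e-13). As at KRT8, the stronger peak was the one set back from the gene start used here. Transcripts of KRT8 are also annotated in GRCh38 to start 44.7 to 44.88 kb upstream of its canonical start, next to KRT18 and on the opposite strand, so the peaks between these genes cannot be given to 1 of them. Between the KRT8 start and the KRT18 start the list held 7 summits, from 0.02 to 43.6 kb upstream of KRT8. No other protein-coding gene lies between them in GENCODE order.

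KRT19, the smallest type I keratin and a marker of simple epithelium, had no summit inside the gene, and the nearest to its start lay 6.88 kb from it. This peak was at chr17:39677439-39678489, 1.88 kb beyond the 3' end, in the gap that separates KRT19 from KRT15. Its fold enrichment was 7.74, with 40 fragments (q = 8.34e-10), the highest value within 20 kb of any of the 5 chromosome 17 genes. Upstream of KRT19, a run of weaker peaks had summits 7.4, 12.3 and 19.3 kb from the start, with fold enrichments of 3.50, 3.02 and 4.01 and 25, 14 and 29 fragments. Of these, the peak farthest from KRT19 had a q-value of 0.00362, while the others had 0.0782 and 0.994.

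KRT15, a basal keratin also used as a marker of epithelial stem cells, had the strongest signal of the basal group. The peak at chr17:39675248-39676345 had its summit 0.93 kb upstream of the start, with a fold enrichment of 6.46 and 33 fragments (q = 1.2e-06). The peak of 7.74 described with KRT19 lay 3.1 kb upstream of KRT15. Both were wider than 1000 bp (1098 and 1051 bp), as were 6 of the 54 peaks of the windows (11.1%), against 5.63% of all peaks on chromosomes 1 to 22 and X. The pair sat between the KRT15 start used here and the KRT19 end. In GRCh38, further KRT15 transcripts are annotated to start 2.13 to 3.64 kb upstream of its canonical start, the range in which the peak of 7.74 lay. Coordinates were not converted, so whether the pair lies on KRT15 starts or belongs to KRT19 was not tested.

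KRT14, the basal type I keratin, had a single peak within 20 kb. It lay at chr17:39744556-39744843, 1.74 kb upstream of the start, with a fold enrichment of 3.75 and 18 fragments (q = 0.217). It did not pass a q-value of 0.05.

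KRT17 and KRT16 were close neighbours with weak signal. At chr17:39780909-39781138 a peak lay on the KRT17 start, with its summit 0.01 kb from it, a fold enrichment of 4.10 and 22 fragments (q = 0.018). The peak at chr17:39775003-39775342, 6.24 kb upstream of KRT16 and 0.76 kb beyond the KRT17 3' end, had a fold enrichment of 3.38 and 16 fragments (q = 0.217). KRT16 had no summit within 5 kb, and KRT17 was the only gene of the injury group that did.

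KRT5, the basal partner of KRT14, and KRT6A, an injury keratin, had no peak in their vicinity. The nearest summit to KRT6A lay 206 kb away and the nearest to KRT5 233 kb away, both toward lower coordinates, and in the other direction none was found for 378 and 351 kb. Both genes fell in a stretch of 590.4 kb without a summit, from chr12:52674878 to chr12:53265289. Such a stretch was not rare: 8.26% of the distances between neighbouring summits on chromosomes 1 to 22 and X were at least as long, as were 54 of 680 on chromosome 12. The median distance was 30.0 kb. In GENCODE order, KRT6A is followed directly by KRT5, and then by 12 keratin genes before KRT8. Peaks were numbered without a break across the stretch. The list holds only sites that passed the authors' p-value threshold, and its weakest summits had 11 fragments, so weaker binding there was not measurable.

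**Figure D2:**
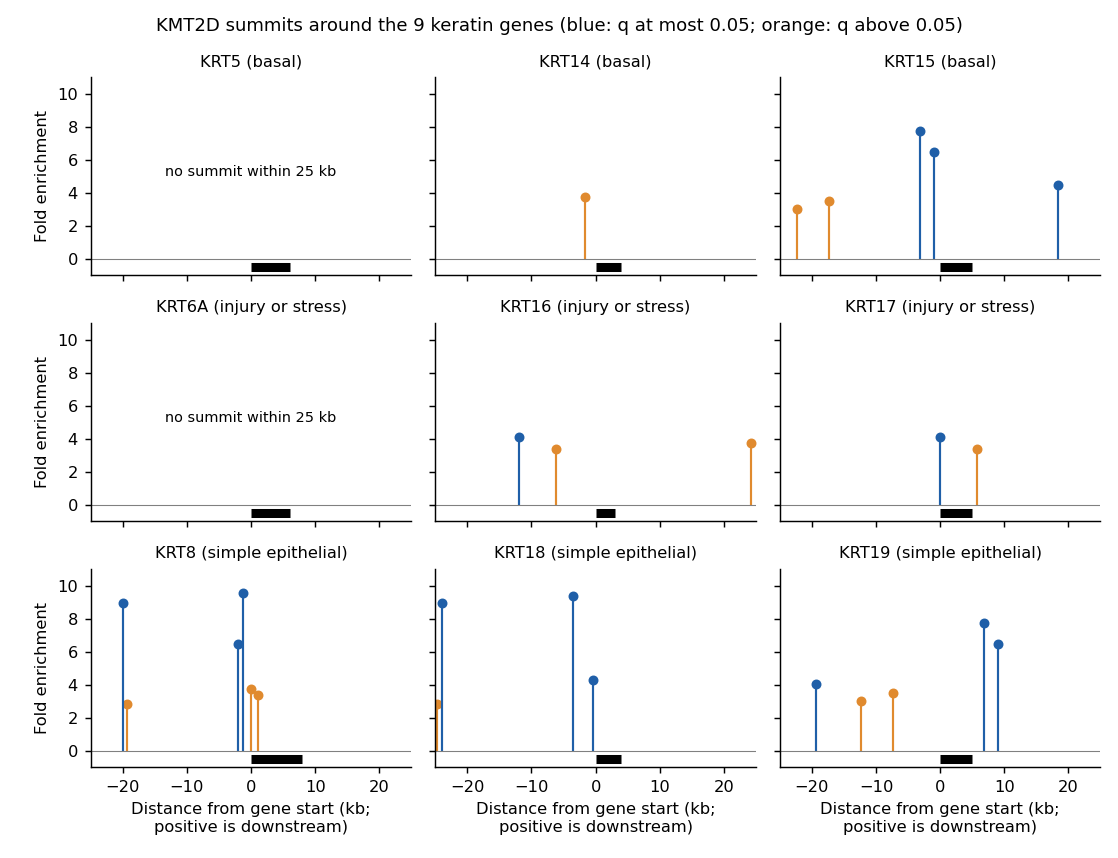
Fold enrichment at each KMT2D summit within 25 kb of the start of each of the 9 keratin genes (vertical axis), against distance from the gene start in kb in the direction of transcription. Black blocks are the gene spans, and stems are blue where the q-value was no higher than 0.05 and orange otherwise. KRT8 and KRT18 carried the highest stems, up to 9.54, while KRT5 and KRT6A had none.

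RefSeq promoter sequences (GRCh38.p14, minus strand) were at hand for 2 of the 9 genes, KRT5 and KRT8. They are shown because these type II genes lay at opposite ends of the range, with no summit within 233 kb and 4 summits within 5 kb. The 250 bases before each start are given, 5' to 3', for KRT5 at chr12:52520395-52520644 and for KRT8 at chr12:52926470-52926719. The KRT8 entry belongs to the upstream start 21.39 kb from the canonical one and not to the start near the 4 summits. Its sequence can therefore not be set against that peak count.
KRT5: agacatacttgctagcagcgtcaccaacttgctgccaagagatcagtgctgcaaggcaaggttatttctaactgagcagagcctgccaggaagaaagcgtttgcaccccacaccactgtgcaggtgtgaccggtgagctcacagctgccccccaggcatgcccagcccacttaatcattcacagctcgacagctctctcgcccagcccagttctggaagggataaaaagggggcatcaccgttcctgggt
KRT8: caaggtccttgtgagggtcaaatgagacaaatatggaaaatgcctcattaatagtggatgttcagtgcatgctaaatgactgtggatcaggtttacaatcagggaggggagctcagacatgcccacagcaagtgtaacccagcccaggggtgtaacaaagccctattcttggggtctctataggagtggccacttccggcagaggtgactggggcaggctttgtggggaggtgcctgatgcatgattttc

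Motifs were searched as exact letters on both strands of these windows, and matches would stand in capitals. Near variants were not counted, so a missing match does not show that an element of that type is absent. The core TATA-box letters TATAAA matched neither sequence, and they were present in 10.7% of the 35116 promoters in the table. The AP-1 motif, searched as TGANTCA, was likewise in neither and was held by 6.57% of all promoters. For AP-2 the letters GCCNNNGGC gave no match here and one or more in 19.8% of promoters. The Sp1 motif, GGGCGG, which can overlap that of AP-2, was in neither sequence and in 42.6% of promoters. G and C made up 56% of the KRT5 window and 50.4% of the KRT8 window, beside a median of 58%. CpG pairs numbered 6 in KRT5 and 1 in KRT8, beside a median of 11. The windows thus had fewer CpG pairs than the median promoter. KRT14, KRT15, KRT16, KRT17, KRT18, KRT19 and KRT6A had no entry.

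Keratin genes have close copies, and the authors kept only reads that mapped to 1 place. Of all 50-base windows of the KRT6A transcript, 39.2% also occurred in transcripts of genes elsewhere, mainly KRT6C and KRT6B, whereas KRT5 had 4.52%. The share was 39.2% for KRT8 and 35.3% for KRT18, whose copies were mostly pseudogenes. KRT14, KRT16 and KRT17 had 24.2%, 21.8% and 17.4%, and KRT15 and KRT19 had 1.02% and 1.79%. By the rounded spans a summit lay inside just 2 of the 9 genes, in KRT17 by only 0.01 kb. These shares therefore do not describe the sequence under most peaks. Only spliced transcripts of GRCh38 were searched, so promoters and introns were not covered, and the part of repeated sequence in the missing peaks was not tested.

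Most peaks of the windows lay away from the 9 genes, with 37 of 54 more than 20 kb from all of them. On chromosome 12, 12 peaks stood in 89.9 kb at the low end of the window, from chr12:52585027 to chr12:52674878. This block held the highest values of the window, 13.4 with 71 fragments at chr12:52609275-52609801 and 11.6 with 61 fragments at chr12:52610984-52611540, and also a peak of 9.74 with 51 fragments at chr12:52637363-52638352. Only 1.25% of the peaks on chromosomes 1 to 22 and X had a fold enrichment of 13.4 or more. The 10 peaks of the KRT8 and KRT18 block had a median of 5.38 (range 2.84 to 9.54), beside 4.82 in the low block (2.48 to 13.4).

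On chromosome 17, the first 260.0 kb of the window held no peak, and 19 peaks followed within 228 kb, from chr17:39060024 to chr17:39288422. Among them was the highest fold enrichment of both windows, 13.9 with 83 fragments, at chr17:39260299-39261241 (q = 1.85e-27), a value reached by 0.944% of the peaks on chromosomes 1 to 22 and X. It was followed by 7.68 with 62 fragments at chr17:39255901-39256226 and 6.64 with 50 fragments at chr17:39070834-39071977. After a stretch of 248 kb without a summit, another 13 peaks ran up to KRT17, with a median of 4.11 (range 3.02 to 7.74), among them one of 6.64 with 34 fragments at chr17:39560210-39560567. All 5 of the chromosome 17 genes lay in this upper block. None of the 9 genes lay in the low block of either window. Which other genes lie there was not examined, so these peaks cannot be called away from keratin genes in general.

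The local background, taken from the control, was at least 2 times the genome-wide level at 10 of the 54 peaks, against 15.2% of the peaks on chromosomes 1 to 22 and X. These 10 were all in the low blocks, 7 on chromosome 17 with levels up to 5.48 times and 3 on chromosome 12 up to 2.74 times. At the 11 peaks within 5 kb of a keratin gene it was at most 1.17 times the genome-wide level.

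**Figure D3:**
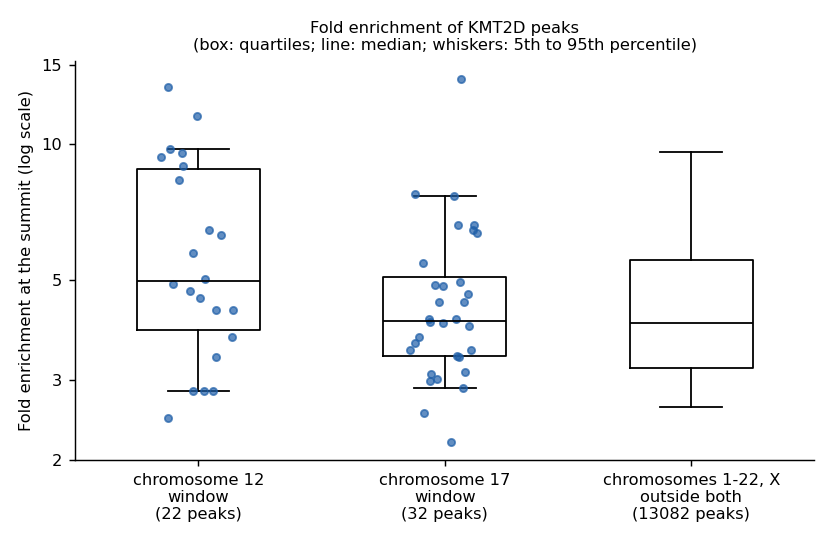
Fold enrichment at the summit, on a log scale, for the 22 peaks of the chromosome 12 window, the 32 of the chromosome 17 window and the 13082 peaks of chromosomes 1 to 22 and X outside both. Points are single peaks, boxes the quartiles with the median as a line, and whiskers reach from the 5th to the 95th percentile. The medians were 4.96, 4.07 and 4.01.

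Fold enrichment had a median of 4.96 on chromosome 12 (interquartile range 3.88 to 8.80, 95% binomial interval of the median 3.75 to 8.96) and 4.07 on chromosome 17 (3.40 to 5.08, interval 3.50 to 4.88). Outside both windows it was 4.01 (3.20 to 5.55). Both intervals included the value outside, so no difference in enrichment was shown. On chromosome 12, 16 of 22 peaks had a q-value no higher than 0.05 (72.7%, 95% Wilson interval 51.8 to 86.8%), as did 18 of 32 on chromosome 17 (56.3%, 39.3 to 71.8%), against 58.8% of the peaks on chromosomes 1 to 22 and X, which lay within both intervals. A median of 32.5 fragments covered the summits on chromosome 12 and 26 on chromosome 17, beside 25 outside.

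As drawn, the windows were dense in peaks. Chromosome 12 had 27.5 peaks per Mb in the window (95% exact Poisson interval 17.2 to 41.6) and chromosome 17 had 32 (21.9 to 45.2). The rest of chromosome 12 had 4.96 and the rest of chromosome 17 had 10.5, so the windows were 5.55 times (95% exact interval 3.45 to 8.47) and 3.04 times (2.06 to 4.32) as dense. Against chromosomes 1 to 22 and X outside both windows, with 4.47 peaks per Mb, the ratios were 6.15 (3.85 to 9.31) and 7.16 (4.89 to 10.1). The windows did not differ from each other beyond counting error (ratio 1.16, 0.655 to 2.10). Intervals cover counting error only and are too narrow, because neighbouring peaks are not independent.

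The chromosome 12 value depended on where the window ended. With 100 kb taken off each edge, 2 of the 22 peaks remained and the ratio to the rest of the chromosomes fell to 0.744 (0.0901 to 2.69), since the peaks stood at both ends of the window and the core around KRT6A and KRT5 was empty. The shortened window also left out KRT8 and KRT18. On chromosome 17 the same change gave 7.81 (5.19 to 11.3), in a window without KRT14, KRT16 and KRT17.

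**Figure D4:**
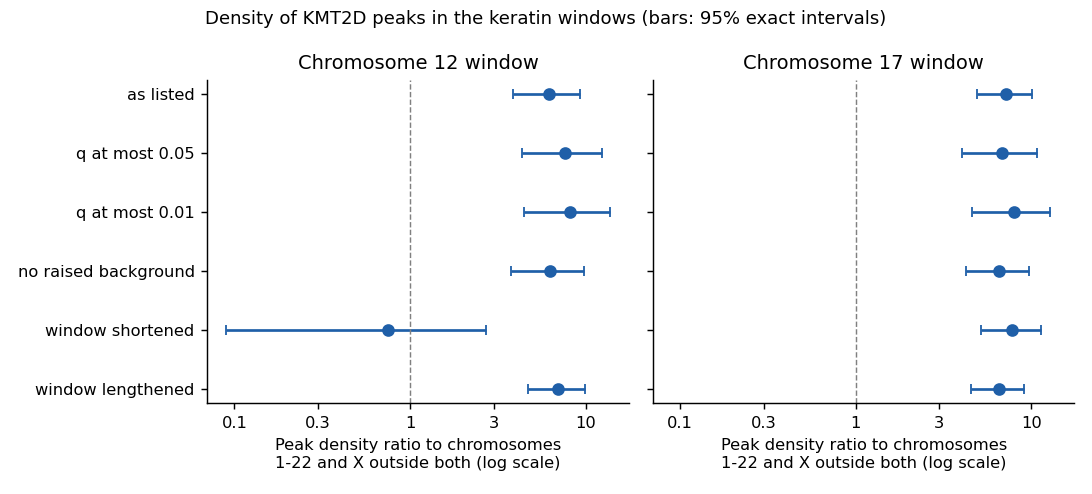
Ratio of peak density in each keratin window to that of chromosomes 1 to 22 and X outside both windows, on a log scale, for the list as deposited and for 5 alternatives. Bars are 95% exact intervals and the dashed line marks equal density. The chromosome 12 ratio fell from 6.15 to 0.744 when the window was shortened, and the 6 chromosome 17 values lay between 6.53 and 7.93. The shortened windows left out KRT8 and KRT18 on chromosome 12 and KRT14, KRT16 and KRT17 on chromosome 17.

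Stitching peaks over gaps of up to 12.5 kb gave 6 clusters of at least 3 peaks, which held 29 of the 54 peaks (53.7%), against 33.8% of the peaks on chromosomes 1 to 22 and X. On chromosome 12, 10 peaks formed a cluster of 53.5 kb at chr12:52584898-52638352, and the 4 peaks at the KRT8 start formed another at chr12:53297723-53302034. The KRT8 cluster was the only one that overlapped a gene of the 9, but only 2 of its 4 peaks had a q-value no higher than 0.05. With the list limited to such peaks, 2 clusters of at least 3 peaks were left, and neither overlapped any of the 9 genes. On chromosome 17, clusters of 3, 4 and 5 peaks lay in the low block at chr17:39059512-39071977, chr17:39204776-39218557 and chr17:39254542-39261241, and the last of these contained the peak of 13.9. A cluster of 3 peaks at chr17:39692354-39704441 was the run upstream of KRT19, with fold enrichments of at most 4.01.

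Beyond the edges of the windows, the nearest summits were 2 kb below and 5.9 kb above the chromosome 12 window, with fold enrichments of 3.92 and 5.38. For chromosome 17 they were 122 kb below and 7.9 kb above, with 4.82 and 6.47. The first and last summits inside the windows had 2.48 and 4.29 on chromosome 12 and 4.03 and 4.10 on chromosome 17.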

How the data were processed

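Chromatin from SCC23 cells was crosslinked, sonicated and precipitated with an antibody to KMT2D. Reads were aligned by the authors to the hg19 (GRCh37) genome using Bowtie2, and MACS2 called peaks from the uniquely aligned reads of this library under a p-value threshold; the control is not given in the sources used here. The deposited fold enrichment is the ratio of scaled ChIP pileup to local background at the summit, each plus a pseudocount. The deposited significance columns are −log10 of the p-value and of the q-value. In 100% of lines the deposited score was 10 times the −log10 p, rounded down. Positions are counted from 1.

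Each summit's ChIP fragments and local background were recovered by solving the fold and the p-value together. Fragments were held to whole numbers by the method. With a scale of 0.381 the p-values of all 13808 peaks were then matched closely (largest gap in −log10 p 0.000654). In 2 simulated lists, of at least 5999 peaks each, the number was exact for at least 99.87%. The control and total depth were not analysed here.

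The members, gene lists and windows were chosen with earlier results of these data known. The text names all 9 genes, the peaks within 5 kb of them, the 5 highest peaks of each window and every cluster. Gene spans came with the rule, strands from GENCODE v44. The 50-base transcript search and the peak-free stretches were added after seeing the data. Comparing promoters of keratin copies was planned but not run, as only KRT5 and KRT8 had entries. Density was per Mb of the chromosome between its outermost peaks. Alternatives were stricter q-values, other window edges, distances and gaps, and a filter on background. Scripts ran under Python 3.11.15 with pandas 2.3.3, scipy 1.17.1, numpy 2.4.6 and, for plots, matplotlib 3.10.9.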

Additional observations from a re-analysis of the deposited data

How the results depend on the processing

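For 12 values 54 alternatives were run, of which 43 kept near the value given, 9 moved and 2 changed direction. The 6 alternatives for the longest distance between summits were chosen after seeing the data, and all of them left it within 1.5 times. Shortening the chromosome 12 window by 100 kb at each edge left 2 peaks and turned its density ratios to 0.744 (chromosomes 1 to 22 and X outside both windows) and 0.654 (rest of chromosome 12), because its peaks stood at both ends. That shortened window left out KRT8 and KRT18. The chromosome 17 ratios stayed above 1 under every alternative, though the shortened window there left out KRT14, KRT16 and KRT17. At a q-value of at most 0.05, 18 peaks remained on chromosome 17, and at 0.01 there were 14 on chromosome 12 and 17 on chromosome 17. These thresholds raised the median fold enrichment, by construction, from 4.96 to 6.38 and 7.40 on chromosome 12 (within the interval of that median) and from 4.07 to 4.92 and 4.96 on chromosome 17. They left 2 clusters under either, without that of KRT8. Genes with a summit numbered 6 within 5 kb and 2 when it had to lie inside the gene. KRT17 was 1 of these 2 by only 0.01 kb, less than the rounding of the spans. At a q-value of at most 0.05, 5 of the 6 remained, without KRT14. No paired analysis was possible because each group held 1 library and a peak list was analysed for 1 of them. With 1 library and a median of 29 fragments over the summits of the windows, recurrence of the weaker peaks in another library could not be shown.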
